A study of Homo sapiens with 16 samples.

Results

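The genes described here are 8 genes of cellular iron handling: the transferrin receptor TFRC, the metal importer SLC11A2, the ferritin chains FTH1 and FTL, the iron exporter SLC40A1, and the regulators ACO1, IREB2 and FBXL5. They were found by their NCBI gene numbers among the 27434 rows of the deposited tables, and all 8 had a row of their own. They were chosen because TFRC was lower after NORAD siRNA in wild-type HCT116 cells, so the TFRC values of that contrast are a description and carry no test. Poly(A) RNA was sequenced from 16 bulk libraries in 8 groups of 2, from U2OS, an osteosarcoma cell line, and HCT116, a colorectal carcinoma cell line. The series asks whether the RNA-binding protein SAM68, product of KHDRBS1, is needed for the long noncoding RNA NORAD to act on Pumilio proteins.

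In U2OS, which is wild type for SAM68 per the labels, the groups were SAM68 siRNA against a non-targeting siRNA pool, and a pcDNA3 plasmid encoding HA-tagged mouse SAM68 against the empty pcDNA3.1(+) plasmid. In HCT116, SAM68 knockout (KO) cells and wild-type (WT) cells each received NORAD siRNA or the non-targeting siRNA pool, here called control siRNA. The siRNAs were used at 50 nM, the plasmids at 100 ng per 20000 cells, and all groups were transfected with a lipid reagent and harvested at 48 h. How the knockout was made, and whether it is 1 clone, is not given in the sources used here.

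Cells take up iron by binding transferrin at TFRC, internalizing the complex and moving the freed iron across the endosomal membrane through SLC11A2 (DMT1). Iron that is not used at once is stored inside a shell of FTH1 and FTL subunits, and SLC40A1 (ferroportin) is the exporter that returns iron to the outside. The iron regulatory proteins, encoded by ACO1 (IRP1) and IREB2 (IRP2), bind a stem-loop called the iron-responsive element when iron is scarce. In the 3′ UTR of TFRC that binding protects the mRNA from decay, and in the 5′ UTRs of the ferritins and of SLC40A1 it blocks translation. FBXL5 is the iron-sensing subunit of the ubiquitin ligase that removes IREB2 when iron is plentiful. ACO1 carries an iron-sulfur cluster when iron is available and then works as cytosolic aconitase.

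The elements themselves are shown because they set the roles of the members apart. In GENCODE release 29 transcripts, the pattern searched was C, 5 bases of any kind, CAGTGN and 5 bases, in which all 5 upper-stem bases pair, with G-T pairs allowed, and at least 4 of the 6 outer bases pair as well. It was searched in the sense strand of every annotated UTR. The loop CAGTGN is in capitals and each sequence is 29 bases, 5′ to 3′.
TFRC 3′ UTR, base 935 of 2658: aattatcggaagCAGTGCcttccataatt
TFRC 3′ UTR, base 1339: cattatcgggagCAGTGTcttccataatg
TFRC 3′ UTR, base 1404: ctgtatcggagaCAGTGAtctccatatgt
TFRC 3′ UTR, base 1451: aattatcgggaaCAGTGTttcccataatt
FTH1 5′ UTR, base 59 of 235: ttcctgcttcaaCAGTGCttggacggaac
FTL 5′ UTR, base 35 of 207: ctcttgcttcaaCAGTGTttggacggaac
SLC40A1 5′ UTR, base 199 of 427: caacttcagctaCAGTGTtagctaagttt

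TFRC was the only one of 19067 genes with a 3′ UTR that held at least 2 such matches (0.00524%), while 18 genes (0.0944%) held at least 1. In 5′ UTRs, 9 of 18942 genes (0.0475%) held a match, and FTH1, FTL and SLC40A1 were among them. The FTH1 and FTL matches differed at 3 of 29 bases, and the 4 TFRC matches differed from each other at 4 to 11. The TFRC matches differed from the ferritin matches at 16 to 20. Any element of a looser form in these UTRs, TFRC included, would be missed by this pattern. SLC11A2, for which an element of a looser form is known in some transcripts, held no match to this pattern, and neither did ACO1, IREB2 or FBXL5.

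Because NORAD carries many copies of the Pumilio binding motif, the members' longest annotated 3′ UTRs were also searched for TGTANATA on the sense strand, here with 10 bases on either side.
SLC40A1 3′ UTR, base 1049 of 1299: aaaaaaagttTGTATATAttttaaaaaa
IREB2 3′ UTR, base 282 of 3313: cagaccatttTGTAAATAaaggcagaat
Each held 1 copy, as at least 1 copy is found in 25.2% of 19067 genes. The other 6 members, TFRC included, held none in this window.

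Library totals ran from 11349545 to 27387412 expected counts. KHDRBS1 followed its labels, at 34.4 and 44.5 CPM in KO cells with NORAD siRNA and 31.6 and 38.5 with control siRNA, against 206 to 241 CPM in the 4 WT libraries. CPM is the count scaled to a common library total, with TMM factors computed within each cell line. In U2OS, KHDRBS1 was at 80.7 and 48.6 CPM with SAM68 siRNA against 245 and 249 with control siRNA, and the SAM68 plasmid libraries had 531 and 593 CPM of it against 219.9 and 277 with the control plasmid, counting reads of the mouse plasmid only where they aligned to the human gene. NORAD was at 77.4 and 54.7 CPM in KO and 50.2 and 47.4 in WT cells with NORAD siRNA, against 225 and 252 in KO and 249 and 232 in WT cells with control siRNA. Colon epithelial markers summed to 4109 to 5296 TPM in HCT116, with CDX1 and VIL1 at 0 in all 8 libraries, and to 926 to 1298 TPM in U2OS. Mesenchymal and bone markers summed to 3088 to 5105 TPM in U2OS, with TWIST1 at 0, and to 543 to 752 TPM in HCT116. Hepatocyte markers summed to 47.3 to 79.7 TPM in U2OS and to 0.64 to 1.41 TPM in HCT116. Markers of erythroid cells and macrophages, both iron-handling cell types, summed to at most 10.4 and 24.8 TPM over all 16 libraries, and HBB was at 0 throughout.

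Levels between genes were compared in TPM, which is per transcript length. The ferritin chains led by far, with a median of 4664 TPM for FTL in U2OS and 4491 TPM in HCT116, and 2540 and 2125 TPM for FTH1. TFRC followed at medians of 149 TPM in U2OS and 177 TPM in HCT116, then ACO1 at 77.7 and 32.1, SLC11A2 at 29.1 and 25.8, IREB2 at 20.3 and 18.1, and FBXL5 at 10.5 and 13.9 TPM. SLC40A1 was at a median of 12.3 TPM in U2OS and had no count in any of the 8 HCT116 libraries. The ranges of FTL, FTH1 and TFRC over libraries did not overlap in either cell line, with FTH1 reaching at most 3099.6 TPM and FTL never below 4149 TPM. In U2OS, TFRC, at 81.25 TPM or more, overlapped ACO1, which reached 82.7 TPM. Below them SLC11A2 and IREB2 lay at 16.5 to 33.5 and 13.3 to 33.6 TPM, and FBXL5 and SLC40A1 at 4.69 to 15.1 and 5.62 to 19.9 TPM. Each of these overlapped the others, except SLC11A2 with FBXL5. In HCT116, ACO1 (28.4 to 38.4 TPM) overlapped SLC11A2 (21.7 to 34.0 TPM), which overlapped IREB2 (14.2 to 25.3 TPM), which overlapped FBXL5 (10.2 to 18.3 TPM).

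**Figure D1:**
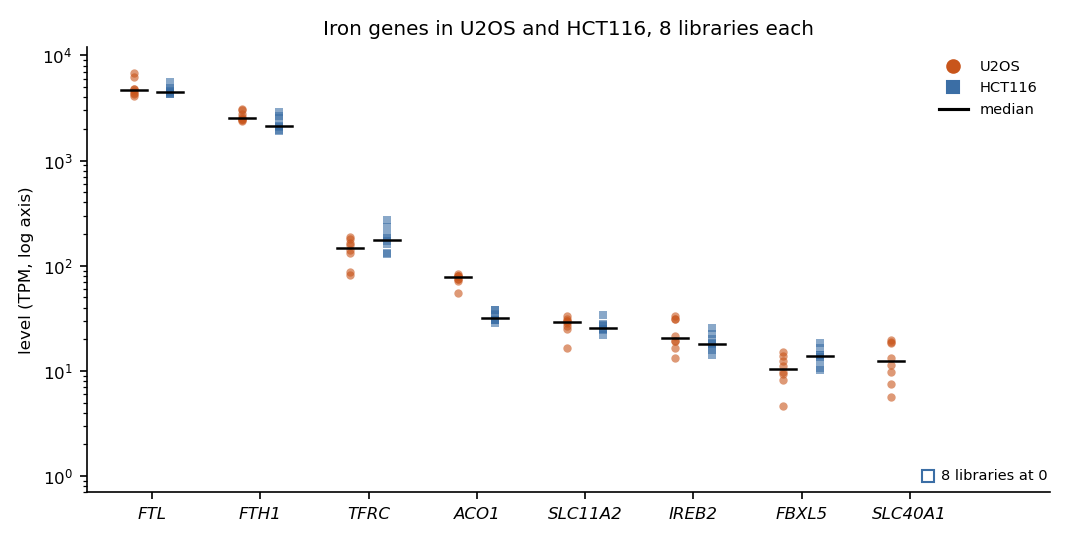
Level of each iron gene in TPM on a log axis, in the 8 U2OS libraries (circles) and the 8 HCT116 libraries (squares), with the median as a bar. FTL and FTH1 stand above TFRC in every library, and the open square drawn at the foot of the axis marks SLC40A1, which was at 0 in all 8 HCT116 libraries.

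The level of TFRC per group shows where its variation lay. In KO HCT116 cells TFRC was at 546 and 485 CPM with NORAD siRNA and at 605 and 787 CPM with control siRNA, from 9571 to 16061 expected counts. In WT HCT116 cells it was at 398 and 389 CPM with NORAD siRNA and at 564 and 674 CPM with control siRNA, from 7571 to 12124 expected counts. In KO cells the libraries with NORAD siRNA lay below those with control siRNA without overlap, where 43.5% of all genes did not overlap in either direction. The same held in WT cells, but that contrast chose TFRC, and 27% of all genes did not overlap there. In bulk samples fewer expressing cells and less RNA per cell cannot be told apart. In U2OS, TFRC was at 405 and 215 CPM with SAM68 siRNA against 468 and 361 CPM with control siRNA, and the SAM68 plasmid libraries had 317 and 510.3 CPM against 447 and 393 CPM with the control plasmid. Both U2OS pairs of groups overlapped.

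**Figure D2:**
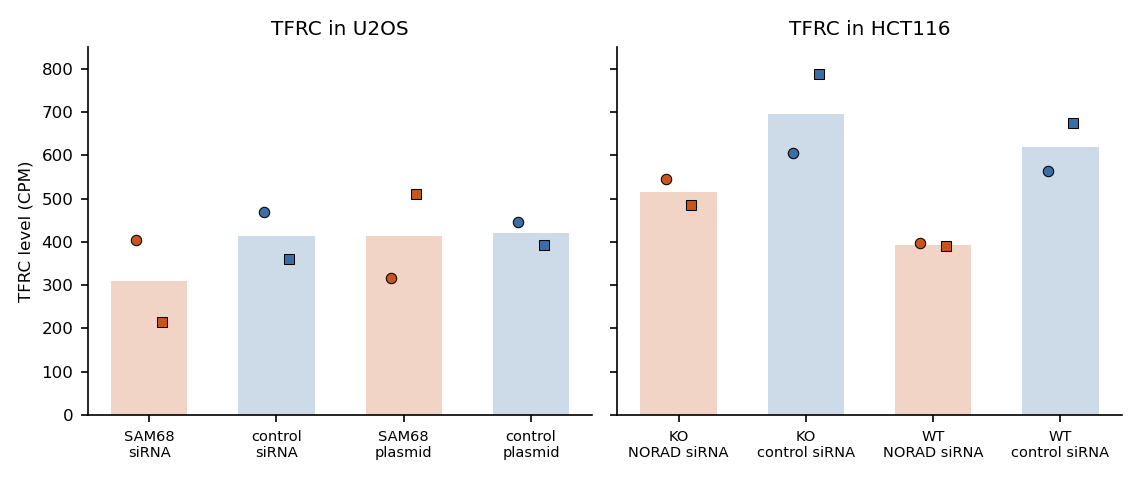
TFRC level in CPM in each library of U2OS (left) and HCT116 (right), with circles for replicate 1, squares for replicate 2 and bars for group means. The NORAD siRNA libraries lie below their control siRNA libraries in KO cells and in WT cells, the contrast that chose TFRC, while the U2OS groups overlap.

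NORAD siRNA in WT cells is the contrast that chose the members. TFRC was lower there by a log2 fold change of -0.65 ± 0.14 (SE), which is 0.635 times the control level. Of the other members, FTH1 stood at 1279 and 1332 CPM with NORAD siRNA against 1280.1 and 1254 with control siRNA, a log2 fold change of 0.04 ± 0.09. FTL stood at 1975 and 1785 CPM against 1915 and 1794 (0.02 ± 0.12). SLC11A2 (0.03 ± 0.11), ACO1 (0.01 ± 0.13), IREB2 (-0.16 ± 0.17) and FBXL5 (0.06 ± 0.18) also overlapped between the groups. None of the 6 other tested members passed edgeR's quasi-likelihood test at a Benjamini-Hochberg adjusted p below 0.05 over all genes, and none had an unadjusted p below 0.05. DESeq2 called none of them either. The background was 1 called gene of 13764 (0.00727%), which was NORAD itself, with 1.32% of genes at an unadjusted p below 0.05 and 27% without overlap between the groups.

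The same siRNA in KO cells gives TFRC a test in libraries the choice did not use. TFRC was lower by -0.43 ± 0.14 on the log2 scale, which is 0.741 times the control level, lower in 2 of 2 libraries, with a 95% interval of -0.75 to -0.12. Its unadjusted p was 0.0123 and its edgeR adjusted p 0.428, so it did not pass the test over all genes, in a range of 0.000736 to 0.95 over 11 alternatives. The lowest of these came from an offset for GC content and length with the replicate number as a block, which called TFRC at -0.57. Without KO control siRNA replicate 2, the library with the highest TFRC of all 16, the value was -0.24. Across all genes, 1 of 13764 (0.00727%) was called by edgeR and 11.3% had an unadjusted p below 0.05.

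The endosomal importer SLC11A2 and the IRP gene IREB2 had positive values in KO cells. SLC11A2 was at 65.5 and 71.0 CPM with NORAD siRNA against 52.1 and 59.0 CPM with control siRNA, without overlap, a log2 fold change of 0.30 ± 0.11 with an unadjusted p of 0.0273 and an edgeR adjusted p of 0.428. In WT cells the same gene was at 47.8 and 51.1 CPM with NORAD siRNA and 46.1 and 50.6 CPM with control siRNA. FTH1, at 1519.5 and 1633 CPM against 1682 and 1726 CPM, had a log2 fold change of -0.11 ± 0.09. FTL, at 2168 and 1729 CPM against 2155 and 2188 CPM, had -0.16 ± 0.12. IREB2, at 73.7 and 88.3 CPM against 55.4 and 73.8 CPM, had 0.33 ± 0.17, with an edgeR adjusted p of 0.474. ACO1 had 0.13 ± 0.13 and FBXL5 0.17 ± 0.17. None of the 7 tested members passed, 2 (TFRC and SLC11A2) had an unadjusted p below 0.05, and DESeq2 called none. In 4 of 7 members the groups did not overlap, beside 43.5% of all 13764 genes.

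The study's central question is whether NORAD loss acts differently without SAM68, which is the difference of these NORAD effects, KO minus WT. For TFRC it was 0.22 ± 0.20 on the log2 scale, given with no test because it contains the WT contrast. NORAD itself was at 0.277 times its control level in KO and 0.203 times in WT cells, a log2 difference of 0.45 ± 0.21. Whether this unequal depletion bears on the differences of the iron genes was not tested. IREB2 had the widest difference among the 6 tested members, 0.49 ± 0.24, with an edgeR adjusted p of 0.642 and a 95% interval of -0.05 to 1.03. Its libraries with NORAD siRNA lay at 53.7 and 66.0 CPM in WT cells against 61.1 and 72.9 CPM with control siRNA. The SLC11A2 difference was 0.27 ± 0.16, that of FTH1 -0.16 ± 0.13 and that of FTL -0.18 ± 0.17. None of the 6 passed edgeR's test or had an unadjusted p below 0.05, and DESeq2 called none. Over all genes edgeR called 0 of 13764 (0%), DESeq2 called 2, and 7.61% had an unadjusted p below 0.05.

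**Figure D3:**
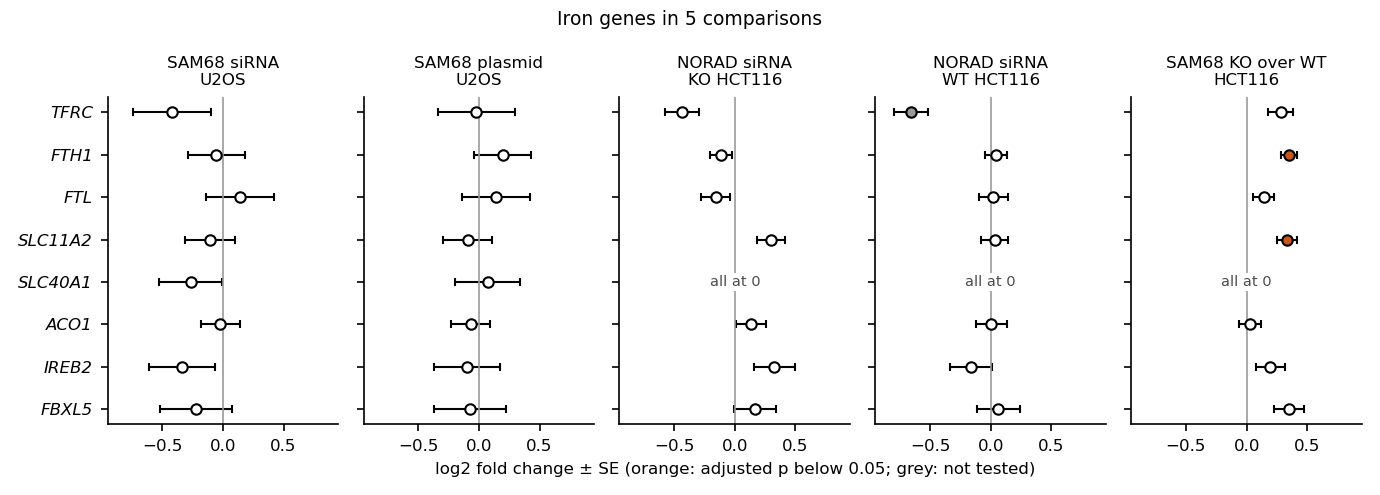
Log2 fold change ± SE of the 8 iron genes in 5 comparisons, with orange points for an edgeR adjusted p below 0.05, open points for tested genes that did not pass, and grey for TFRC in the contrast that chose it. TFRC is negative in both NORAD siRNA comparisons, and FTH1 and SLC11A2 are the members past the threshold, in KO over WT.

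KO cells were compared with WT cells as the mean over both siRNAs, a contrast that weighs both siRNAs equally in each genotype. FTH1 and SLC11A2 rose in KO cells, and the other 5 tested members did not pass. FTH1, the ferroxidase chain of ferritin, lay at 1519.5 to 1726 CPM in the 4 KO libraries against 1254 to 1332 CPM in the 4 WT libraries, 1.27-fold higher, with a log2 fold change of 0.35 ± 0.06 and an edgeR adjusted p of 0.0116. SLC11A2 lay at 52.1 to 71.0 CPM in KO against 46.1 to 51.1 CPM in WT libraries, 1.26-fold higher, with 0.33 ± 0.08 and an edgeR adjusted p of 0.0257. For both genes the 4 KO libraries were above all 4 WT libraries. The 2 calls of 7 stand beside 2424 of 13764 genes called (17.6%), or 11% called higher and 6.62% lower, and with 7 members this is not far from the background. Unadjusted p-values were below 0.05 for 4 of 7 members beside 36.1% of all genes, and 2 of 7 did not overlap beside 19.1%.

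The calls depended on the libraries. FTH1 had a log2 fold change of 0.43 ± 0.09 with control siRNA alone and 0.27 ± 0.09 with NORAD siRNA alone, with edgeR adjusted p-values of 0.123 and 0.0614. It was not called without WT NORAD siRNA replicate 1 (adjusted p = 0.0828) or replicate 2 (0.051), in a range of 8.36e-06 to 0.123 over 17 alternatives. SLC11A2 had 0.20 ± 0.12 with control siRNA alone (adjusted p = 0.652) and 0.47 ± 0.11 with NORAD siRNA alone (0.0281). It kept its call without WT control siRNA replicate 2 or KO control siRNA replicate 1 and lost it without each of the other 6 libraries, with adjusted p-values of 0.0707 to 0.135. An offset for the deposited effective length also ended its call (0.23, adjusted p = 0.0569). In all 17 alternatives both genes kept their positive sign.

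**Figure D4:**
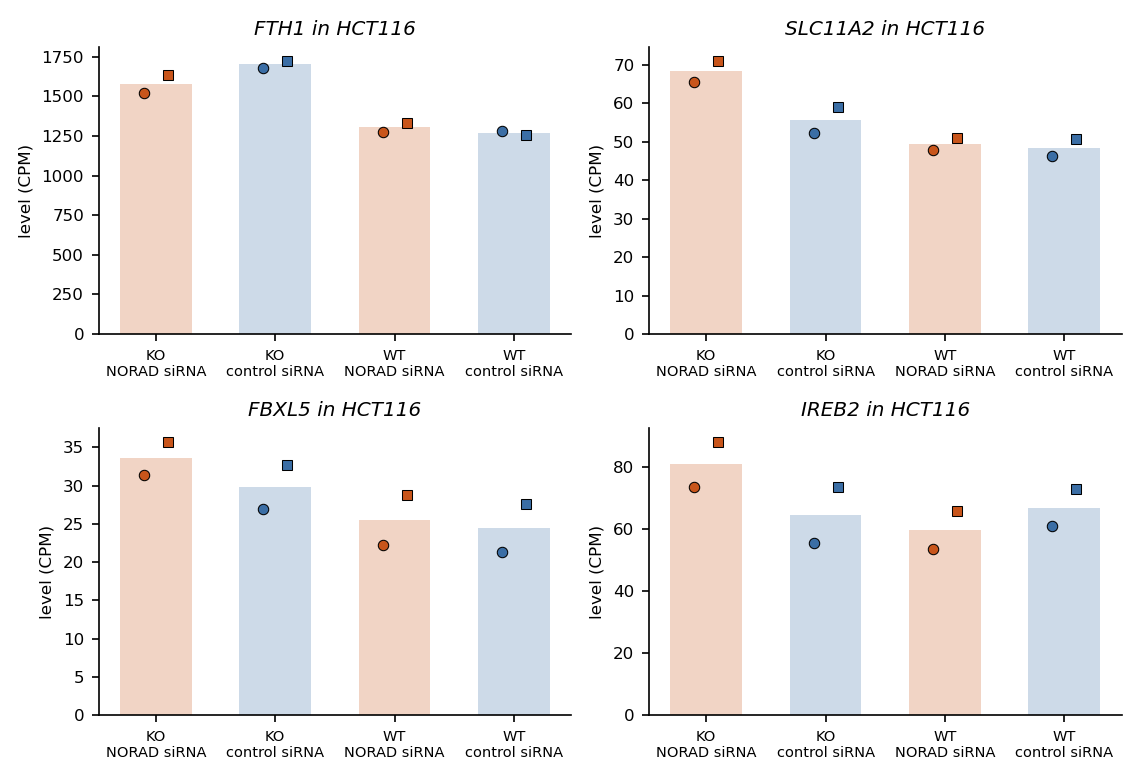
Levels in CPM of FTH1, SLC11A2, FBXL5 and IREB2 in the 8 HCT116 libraries, with circles for replicate 1, squares for replicate 2 and bars for group means. FTH1 and SLC11A2 separate the KO libraries from the WT libraries, and FBXL5 and IREB2 overlap.

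TFRC lay at 485 to 787 CPM in KO against 389 to 674 CPM in WT libraries, overlapping, with 0.28 ± 0.10 and an edgeR adjusted p of 0.0776. It was at 0.17 ± 0.14 with control siRNA alone and at 0.39 ± 0.14 with NORAD siRNA alone, values that share the WT libraries of its choice and carry no test. DESeq2 gave the mean an adjusted p of 0.0443, and the offset for GC content and length moved it to 0.08 (adjusted p = 0.45). FBXL5, which marks IREB2 for removal, lay at 27.0 to 35.7 CPM in KO against 21.3 to 28.7 CPM in WT libraries, with 0.35 ± 0.12 and an adjusted p of 0.0774, and at 0.11 with that offset. FTL, the light ferritin chain, lay at 1729 to 2188 CPM in KO against 1785 to 1975 CPM in WT libraries (0.14 ± 0.08, adjusted p = 0.257), and the same offset gave 0.28 with an adjusted p of 0.0259. IREB2 was at 0.20 ± 0.12 (adjusted p = 0.266) and turned to -0.09 with that offset, and ACO1 was at 0.02 ± 0.09.

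TFRC lies on chromosome 3 at the end of its long arm, beside genes that were low in the knockout. Of the 5 nearest tested genes on its lower-coordinate side, 4 were called lower in KO cells. The nearest, SDHAP1, a pseudogene that shares sequence with SDHA and whose counts are therefore uncertain, was at 6.27 CPM in KO and 12.1 CPM in WT libraries (-0.95 ± 0.15, edgeR adjusted p = 0.00788). The others called lower were TNK2 (-1.49 ± 0.16), PPP1R2 (-0.72 ± 0.11) and MUC20 (-2.62 ± 0.30). MUC20 was low in both genotypes, at 0.335 CPM in KO and 1.99 CPM in WT libraries. It can have passed the filter on low counts through WT libraries alone, so its call among the 4 is no test. MUC4 was at -0.36 ± 0.36. On the other side none of 5 was called, and the nearest, PCYT1A, was at 41.8 CPM in KO and 44.6 CPM in WT libraries (-0.10 ± 0.08). Over all genes, 6.62% were called lower. TFRC itself had a positive fold change, between a called gene and an uncalled one.

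**Figure D5:**
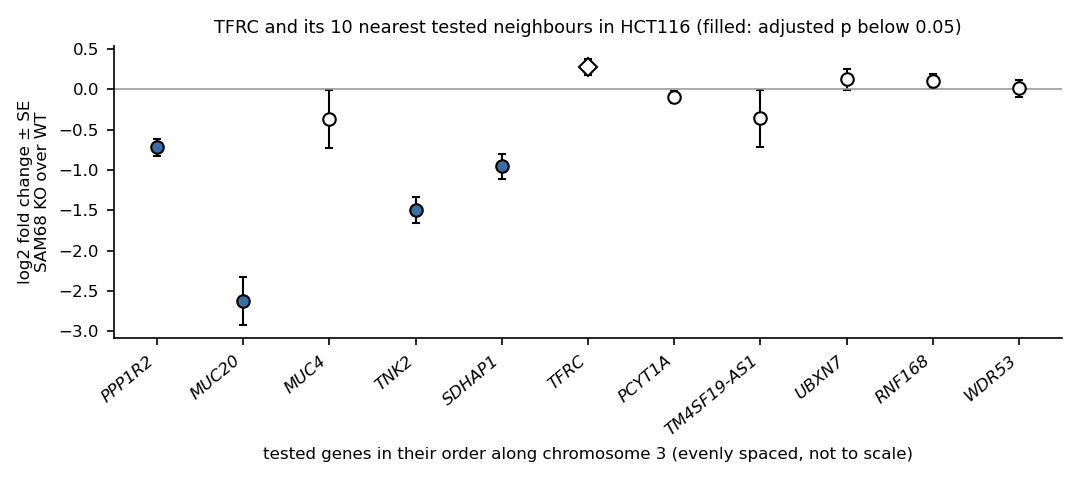
Log2 fold change ± SE in KO over WT HCT116 cells, mean over both siRNAs, for TFRC (diamond) and the 5 nearest tested genes on each side in their order on chromosome 3, evenly spaced. Filled points passed an edgeR adjusted p below 0.05, 4 of them to the left of TFRC and none to its right. The call of MUC20, low in both genotypes, is no test.

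Depletion of SAM68 by siRNA in U2OS was the second test of SAM68, and none of the 8 members passed it. TFRC had a log2 fold change of -0.42 ± 0.32, with a 95% interval of -1.14 to 0.30. IREB2 was at 90.0 and 50.3 CPM with SAM68 siRNA against 94.2 and 82.4 CPM with control siRNA (-0.33 ± 0.27). SLC40A1, the exporter, was at 30.0 and 22.8 CPM against 30.4 and 32.9 CPM (-0.27 ± 0.26). FBXL5 was at 23.5 and 17.7 CPM against 26.2 and 21.8 CPM (-0.22 ± 0.29). In TFRC, IREB2, FBXL5, SLC40A1 and SLC11A2, SAM68 siRNA replicate 2 was the lower library of its group, while FTH1, FTL and ACO1 were higher in it. Without it TFRC was at -0.04 and IREB2 at 0.03. With 1 library left out SLC40A1 ran from -0.39 to -0.08. FTL was highest in SAM68 siRNA replicate 2, at 2555 CPM, against 1602 CPM in replicate 1 and 1509.7 and 2259.9 CPM with control siRNA, and its log2 fold change was 0.14 ± 0.28.

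FTH1 (-0.06 ± 0.24), SLC11A2 (-0.11 ± 0.21) and ACO1 (-0.02 ± 0.16) had smaller values with SAM68 siRNA. The 8 adjusted p-values from edgeR were all 1, no member had an unadjusted p below 0.05, and DESeq2 called none. Across all genes edgeR called 1 of 15658 (0.00639%) and 1.06% had an unadjusted p below 0.05. The groups did not overlap for 2 of 8 members, SLC11A2 and SLC40A1, beside 18.9% of all genes. Replicates varied more in U2OS than in HCT116, with a biological coefficient of variation of 20% against 11.3%, so the same fold change was less detectable in U2OS.

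With the SAM68 plasmid the groups overlapped for all 8 members, beside 18% of genes without overlap. The log2 fold changes ran from -0.10 for IREB2 to 0.20 ± 0.24 for FTH1, which was at 2178 and 1478 CPM with the SAM68 plasmid against 1539.6 and 1654 CPM with the control plasmid. TFRC was at -0.02 ± 0.32 and SLC40A1 at 0.07 ± 0.26. FBXL5 spanned 11.6 and 21.7 CPM within the SAM68 plasmid group, wider than its 18.6 and 16.8 CPM with the control plasmid. All 8 adjusted p-values from edgeR were 1, none had an unadjusted p below 0.05, and DESeq2 called none, beside 1 of 15658 genes called by edgeR (0.00639%) and 0.549% with an unadjusted p below 0.05. SLC40A1 lay at 22.8 to 32.9 CPM in the 4 siRNA libraries and at 13.2 to 20.8 CPM in the 4 plasmid libraries, and the kind of nucleic acid transfected cannot be told apart from the experiment it came from.

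The widest contrast among the members lay between the cell lines. U2OS and WT HCT116 cells, both with control siRNA, were compared in a fit over all 16 libraries, in which cell line and experiment cannot be told apart. SLC40A1 averaged 29.6 CPM in U2OS, here with scaling factors over all 16 libraries, and had no count in HCT116. Against a floor of 3 counts per library, which averaged 0.167 CPM on that scale in WT libraries with control siRNA, it was at least 178-fold higher in U2OS. It passed the filter on low counts through U2OS alone, so it is given with no test. ACO1 was higher by 0.93 ± 0.14 on the log2 scale, 1.91-fold, with an edgeR adjusted p of 4.97e-05, but the offset for GC content and length moved it to -0.01 (adjusted p = 0.918). That offset also moved the median of all genes from 0.10 to -0.32, while every U2OS library, at 54.6 to 82.7 TPM, lay above every HCT116 library in deposited TPM. TFRC was at -0.73 ± 0.26, given without a test because its WT control libraries entered the choice.

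The remaining members did not pass between the lines. FTH1 was at 0.13 ± 0.19, FTL at -0.13 ± 0.24, SLC11A2 at 0.16 ± 0.17, IREB2 at 0.25 ± 0.23 and FBXL5 at -0.17 ± 0.25. With the GC and length offset 3 of them were called lower in U2OS, SLC11A2 at -0.66 (edgeR adjusted p = 0.00017), IREB2 at -0.48 (0.000802) and FBXL5 at -0.82 (0.000408). Over all genes that offset called 12273 of 15948 in either direction, around a median log2 fold change of -0.32. Without TFRC and SLC40A1, 1 of 6 members was called in the fit without an offset, beside 65.4% of 16444 genes, and 3 of 6 did not overlap between the lines beside 85.1% of all genes.

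The genes with the levels most like TFRC were picked by Pearson correlation of log2 CPM over the 16 libraries, after each cell line's mean was removed, among 9857 genes with at least 5 CPM on average in both lines. The points share libraries, depth and replicate pairs, and the values are a description. The libraries of both NORAD siRNA contrasts, with the WT ones that chose TFRC, entered the correlation. The NORAD siRNA values of the genes it picked are therefore no test. API5, an inhibitor of apoptosis, came first at 0.90 (0.88 in U2OS and 0.95 in HCT116), then the ubiquitin ligase RNF6 (0.90), MTDH (0.86), the isoleucyl-tRNA synthetase IARS1 (0.84) and SLFN5 (0.83). With NORAD siRNA, API5 was at -0.18 ± 0.10 in KO and -0.54 ± 0.11 in WT cells, and RNF6 at -0.40 ± 0.14 and -0.58 ± 0.14. MTDH was at 0.06 ± 0.12 in KO and -0.28 ± 0.12 in WT cells, IARS1 at 0.00017 ± 0.12 and -0.18 ± 0.12, and SLFN5 at -0.34 ± 0.23 and -0.39 ± 0.23. The other members ranked far behind, from IREB2 at rank 1762 to FTL at rank 8653. FTL went against TFRC in U2OS (-0.84) and with it in HCT116 (0.45).

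A wider set of 96 iron genes in 8 lists was followed in the same fits, and 95 of them were in the tables. In KO over WT cells 85 were tested, of which 9 were called higher and 6 lower, beside 11% and 6.62% of all genes. The wider set was thus called about as often as genes at large, and the calls named below are a description. Among the 11 tested uptake and reduction genes 1 rose, SLC39A8, a metal importer of the ZIP family, at 0.61 ± 0.11, and the list's median was 0.09 against -0.01 for all genes. Of the 3 tested genes of storage and ferritin turnover 1 rose and 1 fell: NCOA4, the receptor that carries ferritin to the lysosome, was at 212 ± 19.4 CPM in KO against 163 ± 9.64 CPM in WT libraries (SD, n = 4), and PCBP1, an iron chaperone of ferritin, fell by 0.26 ± 0.07 on the log2 scale. In export and its hormone axis 1 of 3 fell, BMP6, an inducer of hepcidin, at -0.70 ± 0.20 from a low level of 1.33 CPM in KO against 2.11 CPM in WT libraries.

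Among 20 genes of mitochondrial import and iron-sulfur assembly 3 rose, the assembly factors ISCA1 (0.36 ± 0.08), NUBPL (0.45 ± 0.11) and HSCB (0.37 ± 0.11), and 2 fell, the assembly factor IBA57 (-0.33 ± 0.08) and the importer mitoferrin-2, SLC25A28 (-0.27 ± 0.08). In cytosolic assembly 1 of 10 fell, MMS19 (-0.31 ± 0.07). Of 18 haem genes the exporter ABCG2 rose (0.72 ± 0.15) and the synthesis enzyme CPOX fell (-0.29 ± 0.08). EPAS1, encoding the hypoxia factor HIF-2α and reported to carry an iron-responsive element, rose by 0.56 ± 0.09, as 1 of 8 such mRNAs. Of 12 genes tied to iron-dependent enzymes or ferroptosis, PTGS2 (1.28 ± 0.31, at 1.01 CPM in KO against 0.435 CPM in WT libraries) and ACSL4 (0.26 ± 0.08, but -0.06 with the GC and length offset) rose. These 15 calls had edgeR adjusted p-values of 0.00773 to 0.0456. EPAS1 kept its call without each of the 8 libraries in turn, the other 14 lost theirs at least once, and all 15 kept their sign. With control siRNA alone none of the 85 was called, beside 0.312% of all genes, and with NORAD siRNA alone 11 rose and 3 fell, beside 18.1%.

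None of the wider iron genes was called by edgeR in the other comparisons within a cell line, of 85 tested in HCT116 and 87 in U2OS, and DESeq2 called none there either. Unadjusted p-values were below 0.05 for none of 87 with SAM68 siRNA or the SAM68 plasmid, beside 1.06% and 0.549% of all genes. They were below it for 1 of 85 with NORAD siRNA in WT cells (1.32% of all genes), for 9 of 85 in KO cells (11.3%) and for 4 of 85 in the difference of the NORAD effects (7.61%). With NORAD siRNA in WT cells the smallest p of the uptake list belonged to LCN2 (-0.94 ± 0.28) and that of the haem list to ALAS1, the first enzyme of haem synthesis (0.20 ± 0.10), each with an adjusted p of 0.999. In KO cells they belonged to the metalloreductase STEAP1 (0.39 ± 0.13) and to PGRMC1 (0.26 ± 0.11), and that of the last list to CISD1, a mitochondrial iron-sulfur protein (0.40 ± 0.12), with adjusted p-values of 0.428 to 0.437. SLC39A8 had the smallest p of the uptake list in the difference of the NORAD effects, 0.66 ± 0.22 (adjusted p = 0.642). In U2OS, SLC25A37, mitoferrin-1, was at 34.4 ± 0.03 CPM with SAM68 siRNA against 25.6 ± 3.17 CPM with control siRNA (SD, n = 2), with an adjusted p of 1.

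Between the cell lines 18 of 88 tested genes were higher and 37 lower in U2OS than in WT HCT116 cells, beside 35.6% and 29.8% of all genes. These counts include HFE, with no count in the U2OS libraries compared, and HEPHL1 and TMPRSS6, with none in the WT HCT116 libraries. They also include HEPH, whose mean in the WT HCT116 libraries lay below the floor. Such genes can pass the filter through the other line alone, so their calls are no test. The hereditary haemochromatosis protein gene HFE had no count in either U2OS library and averaged 7.74 CPM in HCT116 ones. TFR2, the second transferrin receptor, was at 1.1 CPM in U2OS against 9.31 CPM in HCT116 libraries, and the duodenal reductase CYBRD1 at 53.5 against 19.9 CPM. HEPH, a ferroxidase that works with SLC40A1, was at 3.72 CPM in U2OS. Its 0.118 CPM in HCT116 lay below the floor of 3 counts per library, which averaged 0.167 CPM there. Of the cytosolic assembly genes 5 of 10 were lower and none higher, and of the mitochondrial ones 9 of 20 were lower.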

How the data were processed

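Poly(A) RNA of 16 bulk libraries was measured, 2 per group. The deposited expected counts, estimated reads per gene that need not be whole, are RSEM output over RefSeq transcripts, per the file headers, with 1 table per library and no pooling. The TPM values and effective lengths are other columns of the same deposited tables. The submitters' processing notes name STAR, RSEM and hg19 without versions. The kit marks strand, but no source used here says if the counting did, so antisense and overlapping genes are uncertain.

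Expected counts were rounded, passed through filterByExpr and TMM scaling, then fitted by quasi-likelihood in edgeR (edgeR 4.0.16, limma 3.58.1, R 4.3.3), over all 15658 genes in U2OS, 13764 in HCT116 and 16444 in the fit over both lines. A call is a Benjamini-Hochberg adjusted p under 0.05. Each fit used a mean per group and no block, and all its groups shared the estimate of the spread. Standard errors are the log2 fold change over the root of F. Intervals are 95% intervals from these. TPM served for levels between genes. Alternatives were DESeq2 1.42.0, RLE scaling, no filter on low counts, the replicate number as a block, an offset for effective length, an offset for GC content and length with and without that block, each siRNA arm alone, and leaving out each library. All 8 members passed the filter in U2OS and 7 in HCT116, where SLC40A1 was at 0. 5 of the members had whole counts, within 0.005, in all 16 libraries, and FTH1, IREB2 and SLC11A2 did not, since RSEM shares reads with other rows. Further rows of the ferritin genes held at most 0.052% of the summed counts for FTH1.

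The labels do not say that replicates were separate cultures, so the spread behind every p may be technical. Chi-square per gene between replicates was 7.83 to 60.1, above sampling noise, and each library was kept. Exact permutation of 2 against 2 libraries cannot go below a two-sided p of 0.333. Intervals and floors cover counting error or library spread alone. Symbols came from RefSeq gene numbers for 25321 of 27434 rows. Annotation of GRCh38 served for names, UTR sequences and gene order, and no coordinates are printed because the tables use hg19.

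The members, the wider iron lists and the markers were chosen with earlier results of these data known. TFRC has no test with NORAD siRNA in WT cells, in the difference of the NORAD effects and in U2OS over WT, and the member counts there leave it out. It is tested in KO over WT, where its choice by the difference between the WT groups does not enter their mean. The named genes were the members in every comparison, KHDRBS1 and NORAD, the called genes of each wider list (at most 5 by p, otherwise the 2 with the smallest p), the 5 genes most like TFRC and its nearest tested neighbours; not every gene that this rule allows is printed. A few results are not reported here.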

Additional observations from a re-analysis of the deposited data

How the results depend on the processing

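Of the 7 counts of iron genes called, 4 (SAM68 siRNA, SAM68 plasmid, NORAD siRNA in WT cells and the difference of the NORAD effects) were 0 under every alternative run. For NORAD siRNA in KO cells the count of 0 became 1, TFRC, under the GC and length offset with the replicate block, beside 24 of 13482 genes. For KO over WT the count of 2 became 4 with no filter on low counts, 5 with the replicate block (TFRC, IREB2 and FBXL5 added), 1 with the effective length offset, 0 with control siRNA alone and 1 with NORAD siRNA alone, and ran from 0 to 4 with 1 library left out. Over all genes, the calls in KO over WT were 3772 of 18908 with no filter and 5247 of 13764 with the replicate block. They were 2468 of 13764 with the effective length offset, 43 with control siRNA alone and 2495 with NORAD siRNA alone. For U2OS over WT HCT116, leaving out SLC40A1, which carries no test there, only ACO1 was called, beside 10760 of 16444 genes. Under the GC and length offset, with or without the block, ACO1 lost its call, and SLC11A2, IREB2 and FBXL5 were called lower. Over all genes the calls under that offset were 12273 of 15948 without the block and 12385 with it, around a median of -0.32. Signs turned for IREB2 in KO over WT (-0.085 with the GC and length offset, -0.0898 with the block added, -0.049 with control siRNA alone) and for ACSL4 (-0.058 both times). In U2OS over WT HCT116 they turned under that offset, without and with the block, for ACO1 (-0.0122 and -0.0113), IREB2 (-0.48 and -0.48), NCOA4 (-0.0618 and -0.0617), ERFE (1.37 and 1.39), NDOR1 (0.27 and 0.27) and APP (-0.25 and -0.25). For IREB2 with SAM68 siRNA the values with 1 library left out ran from -0.724 to 0.0254. The causes were not tested. Members whose log2 fold change lay within 1 SE of 0 were given no direction. Replicate numbers are shared between groups with no label that pairs them, and deviations of same-numbered libraries correlated at -0.104 to 0.456. The block moved the calls over all genes in KO over WT from 2424 to 5247 and left the other 5 counts of iron genes within the lines at 0. DESeq2 called 3 iron genes in KO over WT, beside 2651 of 13764 genes. SLC40A1 had no count in HCT116, and the lowest count of any other member in a library was 157, for FBXL5.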
